A study of Homo sapiens with 29 samples.

Results

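The comparison described here is that of EndoC-βH1 cells kept in medium from cells making wild-type CEL (WT) with EndoC-βH1 cells kept in medium from cells with an empty vector (EV), in batches 1 and 3 of the series. It rests on 13 of the 29 libraries: 3 EV and 4 WT libraries of batch 1, and 3 EV and 3 WT libraries of batch 3. Libraries were chosen by their labels for medium and batch. By label, CEL was overexpressed in the HEK293 cells and not in the EndoC-βH1 cells. All groups shared the same exposure, in which stably overexpressing HEK293 lines conditioned EndoC-βH1 medium for 3 h, the medium was filtered and brought to equal protein, and it was renewed daily over 10 days. The WT and EV groups thus differed, by label, only in what the HEK293 cells carried. The labels name neither the clone status of the HEK293 lines nor whether the libraries of a group came from separate cultures, so the p-values reflect how far these libraries spread, and that spread may be technical.

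CEL encodes carboxyl ester lipase, which acinar cells of the pancreas secrete into the gut, where bile salts activate it to split cholesterol esters and other lipids. Frameshift mutations of CEL cause MODY8, an inherited disease that first affects the exocrine pancreas and later the insulin-secreting β cells. EndoC-βH1 is a β-cell line made from human fetal pancreas, and HEK293 is a human embryonic kidney line widely used to make proteins. Set against EV, the WT medium serves to separate what normal enzyme in the medium does from what the mutant protein does.

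Polyadenylated RNA was sequenced to totals of 26.2 to 38.3 M estimated counts per library. The marker genes of β cells were read at high levels in all groups. Their sum over 10 genes was 19600 to 22500 CPM in batch 1 and 22000 to 28200 CPM in batch 3. CPM are counts relative to the library total, and for the marker genes of this paragraph they were not scaled by the trimmed mean of M values. Of 7 acinar markers 6 averaged under 1 CPM, with PNLIP and AMY2A at 0 in each library, and only CPA1 was above it. The 4 endothelial markers summed to at most 0.229 CPM. Of 4 leukocyte markers PTPRC and LYZ averaged under 1 CPM, of 6 kidney markers PAX2, LHX1 and HOXD13 did, and 3 of 5 duct markers did. The nearest library of all 13 lay in the same batch, and for 9 it also shared the medium. WT library 1 of batch 3 lay farthest from its group mean. The sample number of EV library 2 of batch 1 (31) breaks the run of the labels, while its distance from its group mean lay within the range of the other libraries. Both were kept.

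Of 20490 entries with enough counts to test, 163 differed between WT and EV, or 0.796%, with batch in the model (edgeR quasi-likelihood test, adjusted p under 0.05). WT was higher for 29 of them (0.142%) and lower for 134 (0.654%). An unadjusted p under 0.05 held for 2434 entries, 1013 of them higher and 1421 lower in WT. The changes were small. The median log2 fold change was -0.265 among those that fell, with a range from -0.121 to -1.36, and 0.276 among those that rose, with a range from 0.156 to 0.722. Only 8 of the 163 changed by over 1.5-fold. Among those that fell were brush border genes of the gut and kidney, blood plasma proteins made by the liver, plasma membrane transporters and genes of receptor signalling, while the genes that rose included the sodium leak channel NALCN and the zinc transporter SLC30A8. Insulin and the β-cell transcription factors did not pass. All values that follow are CPM per library, scaled by the trimmed mean of M values, unless a log2 fold change (WT minus EV, with its standard error) is named.

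**Figure D1:**
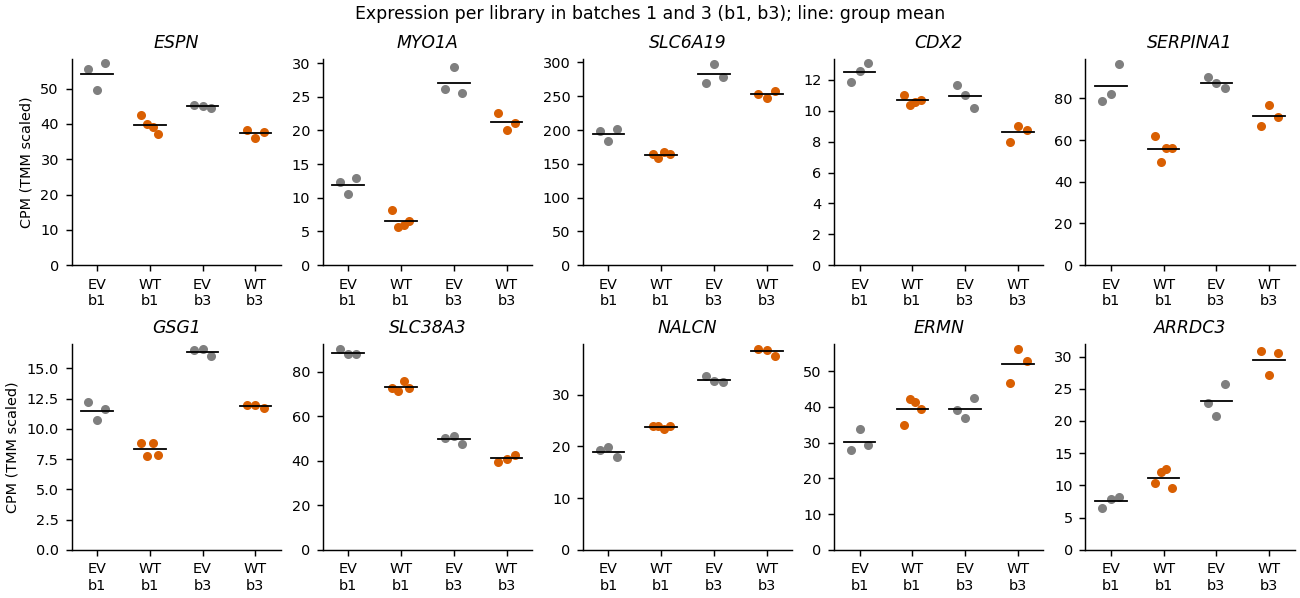
Normalised read count (CPM, axes from 0) of 10 genes in each of the 13 libraries, by medium (EV, WT) and batch (b1, b3); points are libraries and lines are group means of 3 or 4 libraries. For 7 genes every WT library lies below every EV library of its batch, and for NALCN, ERMN and ARRDC3 every WT library lies above.

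CEL itself (chromosome 9, 133061978 to 133071861, GRCh38) was read in the EndoC-βH1 cells of both media at low levels. In batch 1 it was at 2.45, 2.24 and 1.51 CPM in EV and at 1.69, 2.02, 1.76 and 2.61 CPM in WT, and in batch 3 at 10.7, 13.5 and 7.29 CPM in EV and 7.88, 12.9 and 7.81 CPM in WT. The media overlapped in both batches, and the log2 fold change was -0.09 ± 0.17 (SE; edgeR adjusted p 0.90). The reads do not check the labels, since the overexpressed CEL was in the HEK293 cells, which were not sequenced. Insulin mRNA (INS, chromosome 11, 2159779 to 2161341) ran from 9050 to 12200 CPM in EV and from 8910 to 11000 CPM in WT in batch 1, and from 12200 to 13500 and from 11500 to 18300 CPM in batch 3. Its log2 fold change was 0.02 ± 0.10 (edgeR adjusted p 0.96), with -0.10 in batch 1 and 0.17 in batch 3. The values of CEL and INS thus overlapped between the media in each batch.

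Brush border and apical membrane genes were among those that fell. A brush border is the layer of microvilli on absorptive cells of the gut and kidney, with actin bundles inside, enzymes and transporters on its surface and cadherins between its tips. Of 28 measured genes of a list gathered after their values were seen, 13 fell and none rose, with 18 lower and none higher at an unadjusted p under 0.05. The list median was -0.186, with -0.169 in batch 1 and -0.164 in batch 3, where the median of all tested entries was 0.00387. Having been gathered from the calls, the list carries no test of its own. For this group and those below, the shares over all tested entries were 0.654% lower and 0.142% higher.

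The actin bundler of microvilli and hair cells, espin (ESPN, chromosome 1, 6424776 to 6461367), was at 55.7, 49.7 and 57.3 CPM in EV and 42.5, 40, 39.1 and 37.1 CPM in WT in batch 1. In batch 3 it was at 45.4, 45.1 and 44.6 CPM in EV and 38.4, 35.9 and 37.7 CPM in WT. Every WT library lay below every EV library of its batch, and the log2 fold change was -0.37 ± 0.05 (edgeR adjusted p 0.0032). The brush border myosin gene MYO1A, whose product ties the actin core to the membrane (chromosome 12, 57028517 to 57051198), was at 12.4, 10.5 and 13.0 CPM in EV and 8.23, 5.69, 6.01 and 6.58 CPM in WT in batch 1. In batch 3 it was at 26.2, 29.4 and 25.5 CPM in EV and 22.6, 20.0 and 21.1 CPM in WT, again with no overlap. It fell by 0.59 ± 0.10 on the log2 scale (edgeR adjusted p 0.014), with -0.85 in batch 1 and -0.35 in batch 3. Another myosin gene, MYO7A, which serves the stereocilia of hair cells, fell by 0.30 ± 0.05, from 104 to 116 CPM in EV to 82.8 to 100 CPM in WT in batch 1 and from 58.6 to 66.8 to 49.1 to 52.6 CPM in batch 3.

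Enzymes and transporters of the brush border surface fell by similar amounts. SLC6A19, which takes up neutral amino acids (chromosome 5, 1201595 to 1225117), was at 199, 183 and 201 CPM in EV and 164, 159, 167 and 165 CPM in WT in batch 1, and at 270, 298 and 279 against 254, 248 and 257 CPM in batch 3. The media did not overlap in either batch, and it fell by 0.21 ± 0.03 (edgeR adjusted p 0.010). MGAM, the maltase-glucoamylase that ends starch digestion (chromosome 7, 141907813 to 142106747), was at 102, 71.2 and 91.6 CPM in EV and 69.2, 57.8, 49.0 and 72.0 CPM in WT in batch 1. Here WT library 4 at 72.0 CPM lay above EV library 3 at 71.2 CPM. In batch 3, MGAM was at 54.8, 69.5 and 61.5 CPM in EV and 45.6, 47.0 and 53.4 CPM in WT, without overlap, and its log2 fold change was -0.44 ± 0.10 (edgeR adjusted p 0.047). The incretin-cleaving peptidase gene DPP4 fell by 0.19 ± 0.04, and the peptidase-like gene NAALADL1 by 0.29 ± 0.06. MAMDC4, which encodes an apical endosomal glycoprotein, fell by 0.35 ± 0.07, from 648 to 715 CPM to 406 to 582 CPM in batch 1 and from 265 to 285 CPM to 212 to 240 CPM in batch 3.

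The other members that fell included adhesion and scaffold genes and a transcription factor gene. CDH17, the liver-intestine cadherin, was at 414, 435 and 463 CPM in EV and 377, 339, 356 and 391 CPM in WT in batch 1, and at 576, 587 and 598 against 533, 522 and 507 CPM in batch 3. It fell by 0.22 ± 0.04 (edgeR adjusted p 0.015). The actin regulators EPS8L2 and EPS8L3 fell by 0.21 ± 0.04 and 0.24 ± 0.04, and the PDZ scaffold gene NHERF4 fell by 0.18 ± 0.03. The intestinal transcription factor gene CDX2 (chromosome 13, 27962137 to 27971139) was at 11.9, 12.6 and 13.1 CPM in EV and 11.0, 10.4, 10.6 and 10.7 CPM in WT in batch 1, and at 11.7, 11.0 and 10.2 against 8.00, 9.02 and 8.78 CPM in batch 3. It fell by 0.28 ± 0.05 (edgeR adjusted p 0.018), with no overlap in either batch. Not all brush border genes passed: villin (VIL1), which bundles actin in microvilli, was at 930 to 984 CPM in EV and 854 to 906 CPM in WT in batch 1, with a log2 fold change of -0.09 ± 0.03 (edgeR adjusted p 0.11), and the mucin-like cadherin gene CDHR5 was at -0.19 ± 0.13 (adjusted p 0.61). The regulator HNF4A, which acts in gut, liver and β cells, was at -0.01 ± 0.03 and did not pass (edgeR adjusted p 0.93).

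The sequences just before the start of 3 of these genes are shown, since letters bound by CDX factors are known from brush border promoters and the CDX2 gene itself fell. Each run is the 250 bases before the RefSeq start of the gene (GRCh38.p14), at chr12:57051199-57051448 (minus strand), chr5:1201345-1201594 (plus strand) and chr13:27969316-27969565 (minus strand), with TTTATNG, a CDX2 motif, on either strand, in capitals.
MYO1A: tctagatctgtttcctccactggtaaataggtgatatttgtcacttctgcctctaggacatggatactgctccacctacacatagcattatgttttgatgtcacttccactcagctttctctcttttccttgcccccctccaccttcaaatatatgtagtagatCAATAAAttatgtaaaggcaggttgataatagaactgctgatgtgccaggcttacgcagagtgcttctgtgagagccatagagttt
SLC6A19: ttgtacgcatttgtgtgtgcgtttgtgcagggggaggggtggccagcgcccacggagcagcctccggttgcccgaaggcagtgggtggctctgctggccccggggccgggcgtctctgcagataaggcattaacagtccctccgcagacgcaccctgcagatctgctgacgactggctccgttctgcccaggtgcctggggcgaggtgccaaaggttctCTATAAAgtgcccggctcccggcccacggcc
CDX2: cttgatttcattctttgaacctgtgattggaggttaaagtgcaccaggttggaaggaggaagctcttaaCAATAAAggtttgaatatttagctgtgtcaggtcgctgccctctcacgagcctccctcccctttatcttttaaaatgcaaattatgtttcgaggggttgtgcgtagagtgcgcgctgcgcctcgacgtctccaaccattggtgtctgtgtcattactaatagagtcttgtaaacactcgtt
Each of the 3 held 1 match, and they were chosen for holding it. The CDX2 run lies inside the GENCODE interval given above for that gene (27962137 to 27971139), because RefSeq and GENCODE place its start differently. Of the 127 genes with a symbol that fell, 84 had such a promoter in the table, as had 22 of the 29 that rose and 12732 of all 16702 tested with a symbol. TTTATNG stood in 6 of the 84 (7.14%), in 3 of the 22 (13.6%) and in 5.8% of all. The other motifs searched on both strands were the HNF4 forms CAAAGTCCA (0 and 0, and 0.251% of all) and CAAAGTTCA (1 and 0, 0.181%), the AP-1 site TGANTCA (5 and 0, 4.01%) and the E-box CACGTG (9 and 0, 8.73%). The GC box GGGCGG stood in 59 of 84 (70.2%), 10 of 22 (45.5%) and 64.5% of all. These matches describe letters in a window and were not tested. A TTTATNG match does not tell a CDX site from another element, and that of SLC6A19 holds TATAAA, the letters of a TATA box.

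Proteins that the liver releases into blood plasma formed a further group, also gathered after the values were seen. Of 26 measured, 6 fell and the complement protease gene C1S rose, at a median of -0.168 (-0.202 in batch 1 and -0.0653 in batch 3). SERPINA1, which encodes the elastase inhibitor α1-antitrypsin (chromosome 14, 94376747 to 94390693), was at 78.8, 82.2 and 96.5 CPM in EV and 62.0, 49.5, 56.1 and 56.2 CPM in WT in batch 1. In batch 3 it was at 90.4, 87.2 and 84.8 CPM in EV and 66.7, 77.0 and 71.3 CPM in WT. No WT library reached an EV library of its batch, and the gene fell by 0.46 ± 0.07 (edgeR adjusted p 0.0070). Angiotensinogen (AGT, chromosome 1, 230702523 to 230714297), the precursor of angiotensin, was at 27.6, 24.2 and 23.8 against 21.2, 18.5, 21.0 and 15.7 CPM in batch 1 and at 12.2, 13.3 and 11.7 against 10.7, 7.54 and 10.1 CPM in batch 3. It fell by 0.40 ± 0.08 (edgeR adjusted p 0.034). The extracellular chaperone gene CLU fell by 0.19 ± 0.03, from 623 to 655 CPM to 520 to 551 CPM in batch 1 and from 1020 to 1070 CPM to 913 to 1010 CPM in batch 3. The coagulation factor gene F7 fell by 0.17 ± 0.03 and IGFALS, which holds insulin-like growth factors in plasma, by 0.32 ± 0.07. The lipoprotein gene APOC3 was at -0.22 ± 0.07 and did not pass (edgeR adjusted p 0.16): WT lay below EV in batch 1, at 59.5 to 66.1 against 77.0 to 85.4 CPM, and overlapped it in batch 3, at 27.7 to 36.1 against 31.8 to 33.8 CPM. IGFBP4, a binding protein of insulin-like growth factors outside that list, fell by 0.48 ± 0.08, from 7.25 to 8.69 CPM to 4.54 to 5.31 CPM in batch 1 and from 12.2 to 12.9 CPM to 10.5 to 10.9 CPM in batch 3.

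Of 310 measured solute carriers, a group picked after the values were seen, 9 fell and 2 rose, at a median of -0.0298. Among all tested entries 0.654% fell and 0.142% rose. SLC38A3, which carries glutamine (chromosome 3, 50205246 to 50221486), was at 90.1, 87.9 and 87.9 CPM in EV and 72.6, 71.4, 76.0 and 72.9 CPM in WT in batch 1, and at 50.4, 51.3 and 47.6 against 39.5, 41.0 and 42.7 CPM in batch 3. It fell by 0.28 ± 0.03, with an edgeR adjusted p of 0.00071, and the drop was alike in both batches at -0.28 and -0.27. SLC17A9, which loads ATP into secretory vesicles, fell by 0.42 ± 0.06, from 13.7 to 15.0 CPM to 9.54 to 11.3 CPM in batch 1 and from 7.11 to 8.70 CPM to 5.86 to 6.53 CPM in batch 3. The anion exchanger gene SLC26A1 fell by 0.36 ± 0.06, the vitamin C transporter gene SLC23A1 by 0.31 ± 0.05 and the bicarbonate transporter family gene SLC4A11 by 0.35 ± 0.06. SLC29A1, which passes nucleosides, fell by 0.14 ± 0.03, and the lactate exporter gene SLC16A3 by 0.28 ± 0.06. The remaining members that fell were SLC6A19 and the zinc importer gene SLC39A11, by 0.20 ± 0.04.

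SLC30A8 and the bicarbonate transporter gene SLC4A10 were the solute carriers that rose. SLC30A8 (chromosome 8, 116950273 to 117176714) encodes ZnT8, which loads zinc into insulin granules. It was at 344, 391 and 321 CPM in EV and 434, 510, 520 and 434 CPM in WT in batch 1, and at 581, 581 and 626 against 628, 650 and 687 CPM in batch 3. WT lay above EV in both batches, by 0.29 ± 0.06 over both (edgeR adjusted p 0.048), with 0.43 in batch 1 and 0.14 in batch 3. Of 24 exocytosis genes it alone passed with edgeR, DESeq2 or voom. SLC30A8 lost its call in 19 of 31 alternative runs. Other named genes did so too. Over the 86 named genes that were called, counting runs that kept the sign, this number went from 2 (GSG1 and SERPINA1) to 21 (DHRS2, ITGA3 and SLC16A3). Of the 13 measured genes in the list of zinc transporters and metallothioneins, which does not hold SLC39A11, it alone passed with edgeR or voom. DESeq2 also called the zinc importer genes SLC39A10 higher and SLC39A14 lower, which in the edgeR fit were at 0.14 ± 0.03 (adjusted p 0.072) and -0.08 ± 0.03 (adjusted p 0.22).

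Genes that relay signals from receptors fell and rose. β-arrestin 1 (ARRB1, chromosome 11, 75264182 to 75351705), which uncouples activated receptors, was at 17.9, 17.5 and 20.4 CPM in EV and 14.3, 13.8, 13.4 and 14.7 CPM in WT in batch 1. In batch 3 it was at 19.6, 18.2 and 17.2 against 15.6, 15.1 and 14.0 CPM, and it fell by 0.36 ± 0.05 (edgeR adjusted p 0.0070). The receptor kinase gene GRK5 fell by 0.29 ± 0.06, and the arrestin-domain gene ARRDC3 (chromosome 5, 91368724 to 91383359), whose product binds β-adrenergic receptors, rose by 0.45 ± 0.08. ARRDC3 was at 6.55, 7.96 and 8.17 CPM in EV and 10.4, 12.1, 12.6 and 9.60 CPM in WT in batch 1, and at 22.8, 20.7 and 25.8 against 30.8, 27.1 and 30.5 CPM in batch 3. The other 9 of 12 measured arrestins and receptor kinases, a group picked after the values were seen, did not pass. The membrane estrogen receptor gene GPER1 fell by 0.35 ± 0.05, from 30.2 to 31.3 CPM to 20.1 to 24.0 CPM in batch 1 and from 23.1 to 25.1 CPM to 18.9 to 21.1 CPM in batch 3. RAMP1, a subunit of the CGRP receptor, fell by 0.38 ± 0.08.

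Signalling enzymes passed as well. The phospholipase C gene PLCH2 fell by 0.57 ± 0.12, with -0.31 in batch 1, where the media overlapped, and -0.90 in batch 3, where EV was at 17.3 to 19.4 CPM and WT at 8.42 to 10.9 CPM. ITPKA, which phosphorylates inositol trisphosphate, fell by 0.41 ± 0.08, and the TGF-β signal transducer gene SMAD3 fell by 0.23 ± 0.04 as the only 1 of 15 TGF-β and YAP genes to pass with edgeR, DESeq2 or voom. DUSP4, a phosphatase of ERK kinases (chromosome 8, 29333064 to 29350668), rose by 0.42 ± 0.08. It was at 5.34, 5.94 and 5.12 CPM in EV and 6.20, 8.53, 6.97 and 7.94 CPM in WT in batch 1, and at 8.89, 9.01 and 9.96 against 10.8, 12.3 and 13.6 CPM in batch 3. Of the 28 measured immediate early and ERK feedback genes no other passed with edgeR or voom, and the list median was -0.0183. DESeq2 also called ETV1 higher and JUND lower. In the edgeR fit DUSP6 was at 0.28 ± 0.08 (adjusted p 0.15), ETV1 at 0.33 ± 0.09 (adjusted p 0.089) and JUND at -0.15 ± 0.04 (adjusted p 0.13).

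Some laminin and S100 genes fell. Of 21 laminin, laminin receptor and basement membrane genes, gathered after the values were seen, 4 fell and 17 did not pass, at a median of -0.0579. Those that fell were BCAM, a laminin receptor, by 0.24 ± 0.03, the laminin chain genes LAMA5 by 0.30 ± 0.06 and LAMB3 by 0.30 ± 0.05, and the laminin-binding integrin gene ITGA3 by 0.18 ± 0.04. BCAM was at 229, 227 and 235 CPM in EV and 208, 202, 198 and 179 CPM in WT in batch 1, and at 225, 213 and 203 against 177, 181 and 182 CPM in batch 3. Mesothelin (MSLN), a surface glycoprotein, fell by 0.57 ± 0.08, from 10.7 to 13.7 CPM to 8.55 to 10.4 CPM in batch 1 and from 9.14 to 10.4 CPM to 5.51 to 5.67 CPM in batch 3. Of 8 measured S100 genes, which encode small calcium-binding proteins, 3 fell, and this group too was picked after the values were seen. S100A4 fell by 0.48 ± 0.10, S100A6 by 0.28 ± 0.04 and S100A11 by 0.18 ± 0.04. S100A6 went from 78 to 82.8 CPM in EV to 56.6 to 63.5 CPM in WT in batch 1 and from 117 to 127 CPM to 107 to 113 CPM in batch 3.

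GSG1 (chromosome 12, 13083560 to 13103683), named for its expression in germ cells, had the smallest p of all entries. It was at 12.2, 10.7 and 11.6 CPM in EV and 8.83, 7.78, 8.84 and 7.85 CPM in WT in batch 1, and at 16.5, 16.6 and 16.0 against 12.0, 12.0 and 11.7 CPM in batch 3. The drop of 0.46 ± 0.05 (edgeR adjusted p 0.00071) was alike in both batches, at -0.46 and -0.45. RFLNA, a filamin-binding protein gene, fell by 0.39 ± 0.05 and the sodium pump regulator gene FXYD3 by 0.42 ± 0.07. WFS1, which encodes the endoplasmic reticulum protein lost in Wolfram syndrome diabetes, fell by 0.24 ± 0.04 (edgeR adjusted p 0.017). It was at 153, 146 and 161 CPM in EV and 120, 125, 117 and 129 CPM in WT in batch 1, and at 122, 128 and 119 against 101, 113 and 117 CPM in batch 3.

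Among genes of at least 5 CPM the largest drop was that of choline dehydrogenase (CHDH, chromosome 3, 53812335 to 53846390), a mitochondrial enzyme of betaine synthesis. CHDH was at 7.15, 5.03 and 7.32 CPM in EV and 4.38, 2.36, 2.51 and 3.34 CPM in WT in batch 1, and at 5.61, 7.01 and 6.38 against 4.35, 4.36 and 5.43 CPM in batch 3. It fell by 0.75 ± 0.15 (edgeR adjusted p 0.033), with -1.03 in batch 1 and -0.42 in batch 3. NDRG1, a gene that hypoxia induces, fell by 0.43 ± 0.09, with SLC16A3 the other of 26 glycolysis and hypoxia genes to pass, and the list median was -0.0273. The ferlin family gene FER1L5 fell by 0.39 ± 0.08. The histone gene H2BC5 (-0.39 ± 0.08), which has near-identical paralogs, and the pseudogene ABCC6P1 (-0.41 ± 0.07), a copy of part of ABCC6, are uncertain, because reads are shared out between copies by estimation.

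NALCN, the channel that leaks sodium at rest and so sets excitability (chromosome 13, 101053776 to 101416492), was the gene with the smallest p among those that rose. It was at 19.2, 19.8 and 17.9 CPM in EV and 24.0, 24.0, 23.3 and 23.9 CPM in WT in batch 1, and at 33.5, 32.6 and 32.5 against 38.8, 38.7 and 37.5 CPM in batch 3. The rise was 0.28 ± 0.03 (edgeR adjusted p 0.0034), with no overlap in either batch. ERMN, which encodes an actin-binding protein known from myelin (chromosome 2, 157318625 to 157327713), was at 27.8, 33.7 and 29.4 CPM in EV and 34.9, 42.1, 41.5 and 39.3 CPM in WT in batch 1, and at 39.1, 36.9 and 42.5 against 46.8, 56.3 and 53 CPM in batch 3. ERMN rose by 0.39 ± 0.06 (edgeR adjusted p 0.0076).

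The rises named next ran from 0.19 to 0.30 on the log2 scale. The calcium-dependent kinase gene CAMK4 rose by 0.25 ± 0.05, the sarcoglycan gene SGCD by 0.24 ± 0.04 and the receptor phosphatase gene PTPRZ1 by 0.21 ± 0.05. Chromatin and Wnt genes were the lysine methyltransferase gene SETD7 (0.26 ± 0.05), the histone demethylase gene KDM7A (0.20 ± 0.04), the Wnt inhibitor gene CXXC4 (0.19 ± 0.04) and the zinc finger gene ZNF407 (0.21 ± 0.05). Of metabolic genes, the homocysteine methyltransferase gene BHMT2 rose by 0.30 ± 0.06, the glycerophosphocholine phosphodiesterase gene GPCPD1 by 0.28 ± 0.06, the reductase gene DHRS2 by 0.24 ± 0.05 and the sulfurtransferase-like gene TSTD1 by 0.21 ± 0.04. CCDC136 rose by 0.28 ± 0.05, the tubulin-modifying complex gene NICN1 by 0.23 ± 0.04 and the protein mannosyltransferase gene TMTC1 by 0.20 ± 0.04.

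None of 38 measured β-cell identity and hormone genes passed with edgeR, with 4 higher and 2 lower at an unadjusted p under 0.05, while DESeq2 called MAFA lower and voom called none. The list median was -0.0169. MAFA, a transcription factor of mature β cells, was at 87.3, 90.1 and 95.5 CPM in EV and 82.1, 88.1, 78.5 and 71.9 CPM in WT in batch 1, and at 122, 122 and 131 against 107, 124 and 115 CPM in batch 3, so the media overlapped. Its log2 fold change was -0.15 ± 0.05 (edgeR adjusted p 0.16). PDX1 was at -0.07 ± 0.05, NKX6-1 at -0.07 ± 0.04, NEUROD1 at 0.13 ± 0.04 and the amylin gene IAPP at 0.04 ± 0.06, with adjusted p-values of 0.62, 0.51, 0.22 and 0.83. Of 26 glucose sensing and channel genes none passed (3 higher and 7 lower unadjusted, median -0.0325). DESeq2 called 3 lower and voom 2. The nearest were the calcium channel subunit gene CACNA2D2 (-0.15 ± 0.03, edgeR adjusted p 0.060), the adrenergic receptor gene ADRA2A (-0.18 ± 0.04, adjusted p 0.052) and the cation channel gene TRPM5 (-0.19 ± 0.05, adjusted p 0.075). The potassium channel genes ABCC8 and KCNJ11 were at 0.08 ± 0.05 and -0.04 ± 0.04, and the incretin receptor gene GLP1R was at -0.11 ± 0.05.

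The listed genes of protein folding stress and cell death did not pass with edgeR over the 13 libraries. WFS1, which fell, is not in these lists. None of 26 chaperone and folding genes of the endoplasmic reticulum was called with edgeR, DESeq2 or voom, with 1 lower at an unadjusted p under 0.05 and a median of -0.00574. HSPA5, which encodes the chaperone BiP, was at 462 to 484 CPM in EV and 466 to 483 CPM in WT in batch 1, and its log2 fold change was 0.03 ± 0.03 (edgeR adjusted p 0.75). MANF was at 0.02 ± 0.03 and XBP1 at 0.01 ± 0.03. In the PERK and ATF4 arm none of 28 measured genes passed with edgeR (7 lower unadjusted, median -0.0274), while DESeq2 called 3 lower and voom 0. ATF4 was at -0.07 ± 0.02 (adjusted p 0.22), ATF5 at -0.17 ± 0.05 (adjusted p 0.14) and DDIT3 at -0.06 ± 0.04 (adjusted p 0.61). With EV library 2 of batch 1 and WT library 1 of batch 3 left out, edgeR called ATF5 lower. Of 28 apoptosis genes none passed with any of the 3 tools, with 2 higher and 1 lower unadjusted, and of 15 inflammation and NF-κB genes none passed with edgeR or voom, with 4 lower unadjusted. DESeq2 called PTGS2 and NFKBIA lower (edgeR: -0.13 ± 0.03 and -0.14 ± 0.04, adjusted p 0.085 and 0.11).

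Lipid genes were examined because CEL is a lipase. FADS2, a desaturase that makes polyunsaturated fatty acids (chromosome 11, 61792980 to 61867354), was the only 1 of 24 fatty acid synthesis and lipid droplet genes to pass with edgeR. FADS2 was at 1110, 1080 and 1080 CPM in EV and 937, 925, 943 and 935 CPM in WT in batch 1. In batch 3 it was at 1070, 1100 and 1050 against 898, 1020 and 1050 CPM, where the lowest EV and the highest WT library met, and it fell by 0.17 ± 0.04 (edgeR adjusted p 0.035). In that list 11 genes were lower and 1 higher at an unadjusted p under 0.05. Of all 20490 tested entries, 1421 were lower and 1013 higher at that threshold. The list median was -0.0932 (-0.114 in batch 1 and -0.0271 in batch 3). DESeq2 and voom called 5 and 4 genes of the list lower. They included AGPAT2 (-0.13 ± 0.03) and ACSS2 (-0.11 ± 0.03), which make lipid precursors, and neither passed with edgeR (adjusted p 0.062 and 0.076). None of 25 cholesterol synthesis and uptake genes passed with edgeR, DESeq2 or voom (4 lower unadjusted, median -0.0466). None of 13 sterol efflux genes passed with edgeR (5 lower unadjusted, median -0.0932), among them the lipoprotein receptor gene SCARB1 (-0.11 ± 0.03, adjusted p 0.15), and DESeq2 called 2 lower. None of 19 lipases and ester hydrolases passed with any of these tools, with 2 lower unadjusted.

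Of the acinar genes, 4 of 22 were measured and CPA1 fell. This carboxypeptidase gene was at 46.0, 43.4 and 46.3 CPM in EV and 36.6, 38.3, 38.8 and 38.7 CPM in WT in batch 1, and at 31.4, 29.0 and 29.9 against 25.7, 26.3 and 29.7 CPM in batch 3. It fell by 0.20 ± 0.04 (edgeR adjusted p 0.029), with the other acinar markers near 0 in both media. Of 38 DNA replication and mitosis genes none passed with edgeR, with 8 higher and 1 lower unadjusted (median 0.0215), and DESeq2 called 1 higher and 1 lower. CCNA2 was at 0.13 ± 0.03 (adjusted p 0.085) and TOP2A at 0.11 ± 0.03 (adjusted p 0.19).

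The 2 batches were fitted apart as well. In batch 1 alone 64 of 20834 entries passed (0.307%), 11 higher (0.0528%) and 53 lower (0.254%), with 2676 at an unadjusted p under 0.05. In batch 3 alone edgeR called 0 of 20012 (0%), 943 had an unadjusted p under 0.05, and DESeq2 called 26 and voom 11. All 163 called entries had the same sign in both batches, as had 57.9% of the 19720 entries tested in both. The call used both batches, so this sharing of sign is not independent of it. Of the 163, 44 passed in batch 1 alone, 162 had an unadjusted p under 0.05 in batch 1 and 131 in batch 3. The drops had a median of -0.288 in batch 1 and -0.213 in batch 3, and the rises one of 0.328 and 0.226. The test of a difference between the batches passed for 0 of 20490 entries (0%) with edgeR and for 1 with DESeq2, and 975 had an unadjusted p under 0.05.

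WT and EV did not overlap within either batch for 112 of the 134 entries that fell and 24 of the 29 that rose. Over all tested entries this held for 249 with WT below and 95 with WT above. Pearson's r between the changes of batch 1 and batch 3 was 0.065 across all entries tested in both batches and 0.21 across the 12977 with a mean of at least 5 CPM, and entries are not independent replicates. Some genes named for their small p-values in batch 1 were close to 0 in batch 3. No gene was named in this way from batch 3, where none passed. The leukocyte plastin gene LCP1 was at 18.4 to 19.0 CPM in EV and 12.2 to 13.6 CPM in WT in batch 1 (-0.56), and at 8.86 to 9.87 against 7.24 to 9.94 CPM in batch 3 (-0.04), where the media overlapped. The netrin gene NTN1 had -0.31 in batch 1 and -0.04 in batch 3, and the sulfhydryl oxidase gene QSOX1 -0.35 and -0.07.

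**Figure D2:**
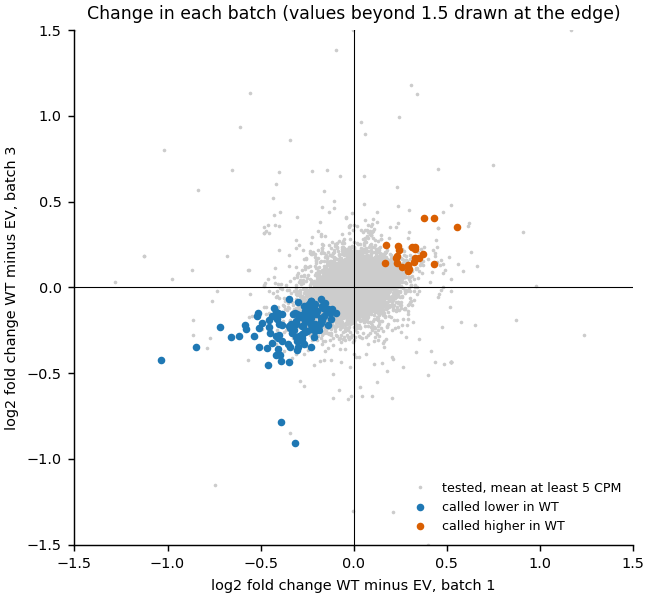
Log2 fold change (WT minus EV) in batch 1 (horizontal axis) and batch 3 (vertical axis) for each entry with a mean of at least 5 CPM; coloured points are entries called over both batches, 126 lower and 22 higher. All coloured points lie at the lower left or the upper right, while grey points of other entries lie on all sides of the origin.

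Batch 2 of the series was not used for these calls and offers the same contrast in 3 EV and 3 WT libraries. There 4013 of 20042 entries were higher in WT (20%) and 3858 lower (19.2%, edgeR adjusted p under 0.05). Of the 134 entries that fell in batches 1 and 3, 37 were also lower in batch 2 and 67 were higher, and their median was 0.151. Of the 29 that rose, 10 were also higher, 12 were lower, and their median was -0.172. For the entries that fell, the opposite direction was thus more frequent, and only 50 of the 134 had the same sign in batch 2 at any p. For those that rose, the counts of the 2 directions were close, with 12 of the 29 having the same sign. Of the 13 brush border genes that fell, 2 were lower and 6 higher in batch 2. MGAM was at 0.88 there, SLC6A19 at 0.38 and CDX2 at 0.35, while MAMDC4 was at -0.45. SLC38A3, at 0.79, ARRB1, at 0.59, and WFS1, at 0.68, also had the opposite sign in batch 2, as had ARRDC3, at -1.14. BCAM (-0.29), MSLN (-0.55), GSG1 (-0.31), AGT (-1.40), FER1L5 (-1.35) and DUSP4 (0.87) kept their sign.

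**Figure D3:**
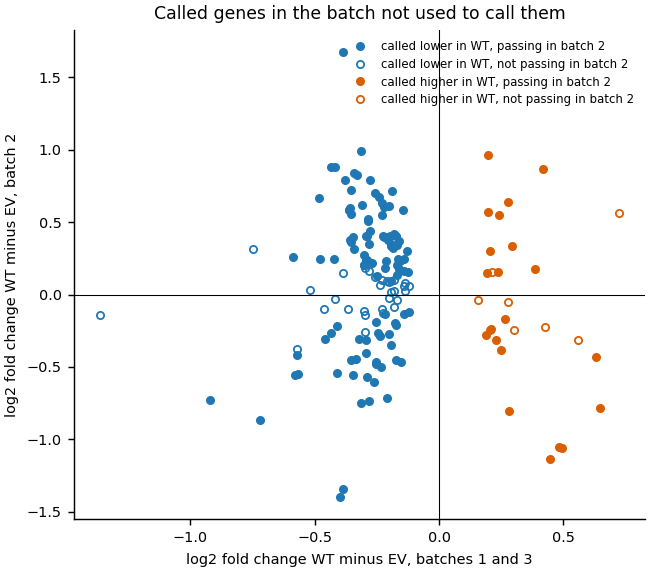
Log2 fold change (WT minus EV) of the 163 called entries over batches 1 and 3 (horizontal axis) and in batch 2 (vertical axis); filled points passed in batch 2 (edgeR adjusted p under 0.05) and open points did not. Of the 134 entries on the left, 67 filled points lie above 0 and 37 below.

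The same EV libraries also serve as controls for the mutant CEL medium (MUT), so the 2 comparisons are not independent and are only set side by side. For MUT against EV in batches 1 and 3, edgeR called 0 of 20322 entries (0%), and 1751 had an unadjusted p under 0.05. The log2 fold change was -0.04 for ESPN, -0.06 for SLC6A19, 0.05 for SERPINA1, 0.03 for SLC38A3, -0.10 for ARRB1 and 0.12 for NALCN, where WT against EV had -0.37, -0.21, -0.46, -0.28, -0.36 and 0.28. Over the 134 entries that fell for WT the median was -0.0486 for MUT and -0.265 for WT. Over the 29 that rose it was 0.13 and 0.276. Groups differed in this: the 13 brush border genes that fell had a median of -0.135 for MUT and -0.283 for WT. Their values for MUT ran from -0.226 to 0.0253. The 7 called plasma protein genes had a median of 0.0753 for MUT and -0.31 for WT. WT and MUT were not tested against each other here.

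The GC content of genes moved with the change. The median GC content was 48.5% over all tested entries, 58.2% over those that fell and 42.1% over those that rose. Spearman's rho between GC content and log2 fold change across all tested genes with a GC value was -0.27 over both batches, -0.29 in batch 1 and -0.12 in batch 3. Among entries of at least 5 CPM it was -0.40, -0.43 and -0.18. In 10 bins of equal size the median log2 fold change went from 0.0651 at a GC content of 36.9% to -0.0678 at 64.0% in batch 1, and from 0.0135 to -0.0279 in batch 3. In batch 2 it went the other way, from -0.0357 to 0.114. With GC and length offsets, which level each library's dependence on these properties, 191 entries passed, 56 higher and 135 lower, against 29 and 134 without them, and 119 were called in both fits. Of the 13 brush border genes 12 kept their call with these offsets, with EPS8L2 the exception (edgeR adjusted p 0.089), as did SERPINA1, CLU and F7, while AGT and IGFALS lost it (adjusted p 0.054 and 0.13). SLC30A8 (adjusted p 0.074), GPCPD1 (0.061), PLCH2 (0.077), ITPKA (0.098), FER1L5 (0.058), ITGA3 (0.074), SLC16A3 (0.14), TMTC1 (0.11), ZNF407 (0.062) and PTPRZ1 (0.096) lost it too. In all, 17 named genes lost their call with the offsets, not all of them listed here. The part of GC content in the remaining differences was not tested.

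**Figure D4:**
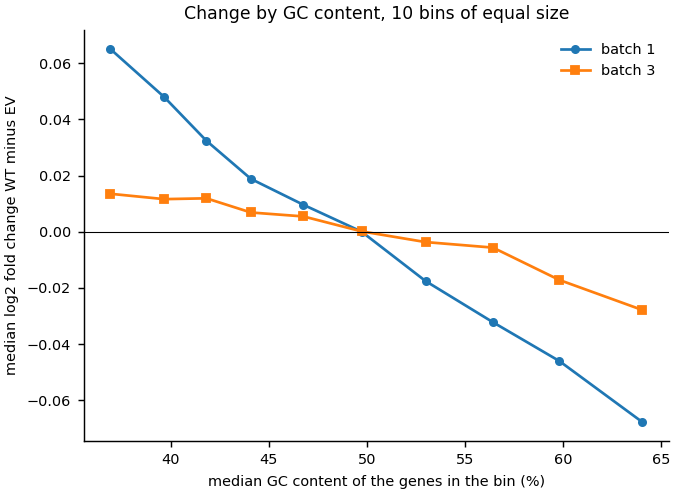
Median log2 fold change (WT minus EV) of genes with a mean of at least 5 CPM, in 10 bins of equal size by GC content, in batch 1 and batch 3. The median falls with GC content in both batches, from 0.0651 to -0.0678 in batch 1 and from 0.0135 to -0.0279 in batch 3.

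The share of counts in mitochondrially encoded genes was 7.69% ± 0.604 in EV (SD, n = 3) and 7.21% ± 0.283 in WT (n = 4) in batch 1, against 4.43% ± 0.185 in EV and 4.19% ± 0.516 in WT in batch 3 (SD, n = 3 each). The mean difference was -0.359 percentage points (exact permutation test within batches, two-sided, p = 0.15 over 700 arrangements), with -0.485 (exact p = 0.23) in batch 1 and -0.233 (exact p = 0.70, where 0.10 is the smallest possible) in batch 3. With this share as a covariate 21 entries passed. Its part in the calls was not tested further.

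How many entries passed depended on single libraries. Leaving out EV library 4 of batch 1 left 25 calls, EV library 2 of batch 3 left 76, EV library 2 of batch 1 left 79, and WT library 2 of batch 1 left 85. Without WT library 3 of batch 1 there were 87 calls, without EV library 1 of batch 3 also 87, without WT library 4 of batch 1 there were 99, and without EV library 3 of batch 1 there were 103. Without EV library 2 of batch 1 and WT library 1 of batch 3 together, 98 passed, 73 of them among the 163. SLC30A8, FADS2, CPA1, SMAD3 and NDRG1 no longer passed in that fit, while ATF5 was called lower and the somatostatin gene SST higher. All 163 kept their sign in every one of these fits. No single WT library held the lowest value for most of the genes that fell: in batch 1 it was library 2 for 46, library 4 for 44, library 3 for 32 and library 1 for 12 of the 134, and in batch 3 library 1 for 62, library 2 for 48 and library 3 for 24.

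**Figure D5:**
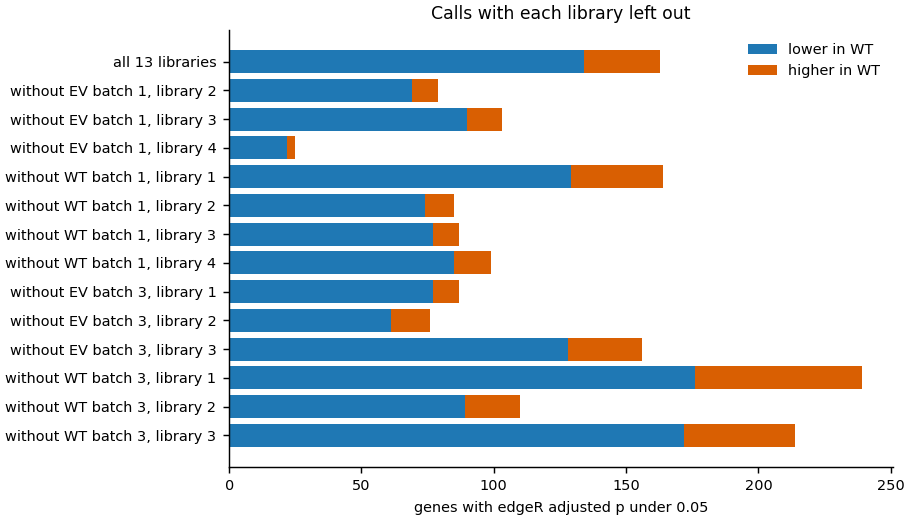
Number of entries with an edgeR adjusted p under 0.05 for WT against EV over batches 1 and 3 (horizontal axis, from 0), with all 13 libraries and with each library left out in turn; blue is lower and orange higher in WT. The number runs from 25 without EV library 4 of batch 1 to 239 without WT library 1 of batch 3, and lower genes outnumber higher ones in each row.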

How the data were processed

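Per the labels' protocols, polyadenylated RNA was made into libraries with a stranded mRNA kit and read on a NovaSeq instrument. The deposited values are estimated counts, 1 column per library, not normalized. The submitters' processing notes list fastp and kallisto. Versions, genome build and annotation are not stated (not given in the sources used here). Because kallisto divides reads among look-alike transcripts, values of near-identical genes are uncertain. The table held 66025 entries, 59369 of them with a symbol in the name tables, and entries without one held 2.56% to 2.76% of the counts. Among the 163 called entries 1 pair held the same values (SEMA7A and a repeat). Coordinates, GC content and gene length come from GENCODE 29 (GRCh38) by Ensembl identifier, and the authors' build may differ.

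After rounding, low entries were dropped (filterByExpr) and TMM factors computed. WT and EV were compared by edgeR's quasi-likelihood F test, with terms for batch and medium over 13 libraries (R 4.3.3, edgeR 4.0.16, limma 3.58.1), with 10 residual degrees of freedom and Benjamini-Hochberg adjustment over all entries tested. A call is an adjusted p under 0.05. Each batch, and the difference between them, was also fitted. CPM are scaled by TMM over the 13 libraries, except the levels and sums of cell type markers, which are not. The standard error is the log2 fold change divided by the square root of F. Alternatives used DESeq2 1.42.0, voom, other scalings, filters and designs. On simulated counts the fit recovered 24 of 50 genes changed by 1.2-fold, 38 of 50 by 1.5-fold, 41 of 50 by 2-fold and 47 of 50 by 3-fold. There were 6 false calls, and small changes can thus be missed. Totals of 26.2 to 38.3 M limit the precision of low genes. The 15 pairs of libraries of a group differed by 3.38 to 18.1 times the sampling noise, so none was a copy.

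The libraries, the 34 gene lists and the naming rule were chosen with earlier results of these data known. The rule took CEL, INS, the 20 largest rises and 20 largest drops that passed at 5 CPM or more, the 8 nearest that did not pass, the 6 smallest p per batch, and from each list the members that passed and up to 4 with the smallest p. The groups of brush border, plasma protein, laminin, arrestin, solute carrier and S100 genes, the genes named from them, VIL1, CDHR5, HNF4A, APOC3, GPER1, SLC38A3 and the genes named under the other observations were chosen after their values were seen. Some genes the rule took are left out for length or are not reported here. Promoter sequences are from RefSeq (GRCh38.p14). Figures were drawn with matplotlib.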

Additional observations from a re-analysis of the deposited data

Results flagged for a closer look

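In 6 of the named genes, a WT library of batch 1 lay apart from the others of its group by more than Dixon's criterion for a gap relative to the group's range, in a test that chance alone meets in about 5% of groups. NHERF4 was at 95.7 CPM in WT library 4, with the others at 104 to 105 CPM. NAALADL1 was at 22.0 CPM in WT library 1 (others 20.2 to 20.5 CPM), and MSLN at 10.4 CPM in the same library (others 8.55 to 8.80 CPM). NALCN was at 23.3 CPM in WT library 3 (others 23.9 to 24.0 CPM). S100A11 was at 38.2 CPM in WT library 4 (others 38.9 to 39.0 CPM), and TOP2A at 351 CPM in WT library 2 (others 380 to 382 CPM). In all, 6 of 124 groups of values met this criterion, and between them they concerned each of the 4 WT libraries of that batch.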

How the results depend on the processing

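Over both batches, 163 entries passed. The count was 512 with DESeq2, 323 with voom and quality weights, 318 with no filter, 280 with all 29 libraries in the fit, 366 with batch 2 added (63 shared), 41 with the MUT libraries added, 98 without EV library 2 of batch 1 and WT library 1 of batch 3 and 21 with the mitochondrial share as a covariate. It was 359 on summed profiles, which leave 1 residual degree of freedom in total, and 820 with voom and an estimated correlation between libraries of -0.13. It was 0 with no batch term (665 unadjusted) and 0 against a fold of 1.2 (238 unadjusted). With total library size as the scaling, 36 were higher and 105 lower. Leaving out 1 library gave 25 to 239.

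The labels give no shared origin for libraries of the same replicate number. Deviations from the group mean correlated at -0.045 to 0.055 between same-numbered WT and EV libraries and at -0.076 to 0.041 between the others. With groups of 3 or 4 libraries these values cannot tell whether the numbers mark pairs. With the replicate block 43 entries passed over both batches, 59 with the block and GC and length offsets, and 212 in batch 1.

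Batch 1 alone gave 64 calls, with 406 under DESeq2, 42 with total library size, 408 with no filter, 104 with a stricter filter, 233 with voom, 207 in the fit of all libraries, and 7 to 122 without 1 library. Batch 3 alone gave 0, with 26 under DESeq2, 64 with no filter, 11 with voom, 1 in the fit of all libraries, and 0 to 7 without 1 library. The difference between batches gave 0, with 1 under DESeq2, 30 with no filter, and 0 to 2 without 1 library. The cause of these shifts was not tested.

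Adding batch 2 reversed the sign of H2BC5 (0.229), RAMP1 (0.014), SLC38A3 (0.052), WFS1 (0.0452), ITGA3 (0.0195), GPCPD1 (-0.0816), ARRDC3 (-0.108), QSOX1 (0.0376), FGFR1 (0.0913), ERBB3 (0.00937), CX3CL1 (0.0505) and PGF (0.0133), none of which passed there. No other named call changed sign in any alternative run. Depth and library number limit what low genes can show.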

Other observations

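Growth factor and cytokine genes that the report does not describe, picked after their values were seen, also fell in WT in the edgeR fit. The placental growth factor gene PGF, a ligand of VEGF receptors, was at 72.8, 81.1 and 76.6 CPM in EV and 63.4, 68.3, 66.6 and 64.7 CPM in WT in batch 1, and at 70.2, 70.6 and 64.1 against 56.0, 58.6 and 59.2 CPM in batch 3. It fell by 0.23 ± 0.03 on the log2 scale (edgeR adjusted p 0.0070). The membrane-bound chemokine gene CX3CL1 fell by 0.23 ± 0.05, and its media did not overlap in either batch. Of receptor genes, FGFR1 fell by 0.14 ± 0.03, ERBB3 by 0.16 ± 0.04, the TNF family receptor gene TNFRSF12A by 0.29 ± 0.06, the coreceptor gene TGFBR3 by 0.22 ± 0.04 and the interleukin receptor gene IL17RB by 0.58 ± 0.12. LRIG1, which restrains ERBB receptors, fell by 0.18 ± 0.03, and the cytokine receptor kinase gene JAK3 by 0.22 ± 0.04. In batch 2 the log2 fold change was 0.55 for PGF, 0.63 for CX3CL1, 0.59 for FGFR1, 0.37 for ERBB3, 0.52 for TNFRSF12A, 0.40 for TGFBR3 and 0.10 for LRIG1, against -0.56 for IL17RB and -0.13 for JAK3.

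Transcriptional regulators were called in both directions, and 3 that fell were picked after their values were seen. The liver and fat factor gene CEBPA fell by 0.22 ± 0.05, the thyroid hormone receptor gene THRA by 0.20 ± 0.04, and SKI, a corepressor of SMAD proteins, by 0.14 ± 0.03. THRA was at 80.7 to 87.7 CPM in EV and 70.1 to 72.8 CPM in WT in batch 1 and at 80.9 to 87.5 against 70.0 to 79.7 CPM in batch 3, without overlap, while CEBPA overlapped in batch 3, at 36.8 to 40.2 against 29.5 to 37.0 CPM.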
